A study of Mus musculus with 48 samples.

Results

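The genes described here encode the Wnt ligands, their Frizzled receptors and the secreted proteins of the Sfrp and Dkk families. They also encode the intracellular regulators Axin1, Axin2, Frat1 and Frat2, and the planar polarity proteins of the Prickle, Vangl and Celsr families. They were chosen by gene symbol and number 50 of the 50763 gene entries of each count table. RNA was sequenced from 48 libraries of primary cells of 4 mouse lines, with 12 libraries per line and 3 in each of 16 groups. The mice were heterozygous for a Gas*-BERKY3, Gai*-BERKY3, Gaq*-BERKY3 or Ga13*-BERKY3 allele, a biosensor for active G protein alpha subunits of that kind whose expression depends on Cre, and the lines are called here Gas, Gai, Gaq and Ga13.

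In every line the groups were agonist with Cre virus, agonist with empty virus, medium with Cre virus, and medium with empty virus. Gas cells were astroglia from brain given 1 µM isoproterenol, an agonist of beta-adrenergic receptors, for 90 min. Gai, Gaq and Ga13 cells were lung fibroblasts given 100 µM TRAP-6, a peptide modelled on the tethered ligand of the thrombin receptor PAR1, for the same time, and medium groups received fresh medium alone. All cells of all groups carried the allele, and all had received an adeno-associated virus with a CMV promoter, carrying Cre or nothing. For Gas cells the virus was less diluted, and more cells were seeded per well, than for the fibroblasts. The labels give no age, and nothing says whether libraries of a group came from separate mice or cultures, so the p-values measure the spread between these libraries, which may be technical.

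Wnt proteins are lipid-modified secreted ligands that bind Frizzled receptors. With the Lrp5 and Lrp6 coreceptors they stop a complex built on Axin from marking beta-catenin for destruction, and beta-catenin then enters the nucleus and acts through TCF and LEF factors. Frat proteins bind the kinase Gsk3 and keep it from the Axin complex, and many Sfrp and Dkk proteins block ligand or coreceptor. Axin2 is itself a widely used target of the pathway that feeds back on it. In planar polarity, Frizzled on a cell faces the Vangl and Prickle proteins on its neighbour, with Celsr on both cells, and beta-catenin is not used. Astrocytes are known for Wnt7a and Wnt7b, which act on brain vessels and oligodendrocyte precursors, and fibroblasts for Wnt5a and secreted antagonists.

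Total counts ranged from 15606007 to 42564149 per library, and 3 counts in the shallowest library correspond to 0.192 CPM (counts per 1000000 counts of the library), which covers counting error only. With Cre virus the biosensor sequence was at 19.1 to 27.3 CPM in Gas. It was higher in the fibroblast lines, at 106 to 137 CPM in Gai, 74.3 to 101 CPM in Gaq and 107 to 136 CPM in Ga13. With empty virus it was at 0 to 1.05 CPM over all lines. Astrocyte markers summed to 8223 to 9055 CPM with isoproterenol and 8196 to 8648 CPM in medium, and all 7 were detected. Fibroblast markers summed to 27424 to 47061 CPM with TRAP-6 and 28102 to 48008 CPM in medium over the fibroblast lines. Markers of other cells were also present. In the Gas cultures those of smooth muscle and pericytes summed to 2059 to 2583 CPM, of fibroblasts to 1518 to 1970 CPM, of the oligodendrocyte lineage to 729.7 to 905 CPM and of ependyma to 307 to 361 CPM. In the fibroblast cultures those of smooth muscle and pericytes summed to 1550 to 3494 CPM and of mesothelium to 357 to 556 CPM. The replicate 1 libraries of Gai stood apart from replicates 2 and 3 in all 4 groups: their gene counts gave a chi-square per degree of freedom of 9.71 to 19.3 against the other two, which gave 2.99 to 3.44 against each other, and the called Gai responses are given also with replicates 2 and 3 alone, an alternative chosen after seeing the data. In such bulk samples, fewer cells of a type and less RNA per cell cannot be told apart.

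Promoters of some members are shown here, chosen for the reasons given after them. They were searched for response elements known to act downstream of cAMP, calcium and Wnt signals, and only the cAMP core is marked. Of the 50 members, 35 matched the RefSeq promoter table (GRCm38.p6), with 42 start sites between them. The 250 bases before the start are printed 5′ to 3′ in the direction of the gene, and capitals mark the core of the cAMP response element, TGACG, on either strand (CGTCA when read from the other strand).
Prickle2 chr6:92706185-92706434 (minus strand): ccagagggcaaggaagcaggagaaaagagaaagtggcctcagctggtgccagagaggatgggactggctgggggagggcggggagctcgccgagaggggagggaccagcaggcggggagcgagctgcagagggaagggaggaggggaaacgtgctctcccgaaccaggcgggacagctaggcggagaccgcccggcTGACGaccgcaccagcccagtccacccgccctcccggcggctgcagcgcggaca
Wnt11 chr7:98834862-98835111 (plus strand): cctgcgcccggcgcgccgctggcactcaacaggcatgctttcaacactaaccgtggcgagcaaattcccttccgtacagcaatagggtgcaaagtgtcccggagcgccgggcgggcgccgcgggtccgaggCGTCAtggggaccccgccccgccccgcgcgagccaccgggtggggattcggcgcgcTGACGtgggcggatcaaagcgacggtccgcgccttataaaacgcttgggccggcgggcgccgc
Prickle1 chr15:93595903-93596152 (minus strand): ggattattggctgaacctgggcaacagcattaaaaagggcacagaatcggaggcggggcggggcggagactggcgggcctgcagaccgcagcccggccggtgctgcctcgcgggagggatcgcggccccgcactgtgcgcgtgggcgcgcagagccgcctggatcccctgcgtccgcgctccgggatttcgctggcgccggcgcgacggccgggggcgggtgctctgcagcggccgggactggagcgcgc
Frat1 chr19:41829720-41829969 (plus strand): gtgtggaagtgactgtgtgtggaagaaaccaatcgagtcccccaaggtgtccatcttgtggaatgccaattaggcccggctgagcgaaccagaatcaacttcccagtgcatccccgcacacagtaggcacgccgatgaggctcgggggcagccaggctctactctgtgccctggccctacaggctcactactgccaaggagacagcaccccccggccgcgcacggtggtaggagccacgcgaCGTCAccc
Frat2 chr19:41848133-41848382 (minus strand): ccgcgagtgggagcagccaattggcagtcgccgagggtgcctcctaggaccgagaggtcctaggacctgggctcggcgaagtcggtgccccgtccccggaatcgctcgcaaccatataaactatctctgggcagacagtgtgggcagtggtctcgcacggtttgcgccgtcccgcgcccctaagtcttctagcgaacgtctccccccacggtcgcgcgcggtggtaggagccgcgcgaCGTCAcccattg
Prickle2 and Wnt11 are given as the members that rose with isoproterenol and hold the core, and were chosen for holding it. Of the 11 members that rose, 7 matched the table, and Fzd5, Fzd9, Prickle1, Vangl2 and Wnt9a have no core at any start, while Prickle2 has it at 1 of 4 starts. The others are given for their responses, Prickle1 and Frat2 as members called with TRAP-6 in each fibroblast line. Frat1 is the neighbour of Frat2 on chromosome 19 and is shown for comparison. Frat1 and Frat2 hold the core at 8 and 12 bases before the start, and 36 of the 40 bases that end with it are identical between them. The first Wnt11 start has 2 cores, and neither the Prickle1 promoter printed nor that of its other start has any. The core stood in 7 of the 42 member promoters, against 17.8% of all 32851 promoters in the table. The full element TGACGTCA, which contains the core, was in 0 of the 42, against 1.55% of all. Of other motifs searched on both strands, TGANTCA (AP-1) was in 1 of 42 and 6.75% of all, CTTTGAT (TCF) in 3 of 42 and 3.21% of all, and GGAAA (the NFAT core) in 13 of 42 and 55.6% of all. Left unmarked in the printed promoters are a TCF match at -51 from the start in Wnt11 and an NFAT core at -106 in Prickle2. A match in these windows is a description of the letters, not of a binding site.

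Several members had levels that differed many times over between astrocytes and fibroblasts. Celsr2, a cadherin of the polarity core, was at 271 to 351 CPM in the 12 Gas libraries, against 1.23 to 2.90 CPM in Gai, 1.97 to 4.07 CPM in Gaq and 1.71 to 3.29 CPM in Ga13. Celsr1 was at 90.6 to 119 CPM in Gas libraries and at no more than 4.61 CPM in any fibroblast library. The same held for Vangl2, their membrane partner, at 75.1 to 139 CPM in Gas and at no more than 10.9 CPM in fibroblasts. Among receptors, Fzd3 had a median of 507 CPM in Gas and 8.72, 9.75 and 9.63 CPM in Gai, Gaq and Ga13. Wnt7a and Wnt7b, the ligands named above for astrocytes, had medians of 39.98 and 34.8 CPM there, and no fibroblast library passed 0.259 CPM for either. Astrocytes and fibroblasts came from different lines and tissues with 1 line of astrocytes, so these levels carry no test. Line, tissue, culture, virus dilution and the number of cells seeded cannot be told apart.

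Fibroblasts had higher levels of Sfrp1, Dkk2 and Fzd1. Fzd1 had medians of 105 CPM in Gas and 242, 255 and 230.0 CPM in Gai, Gaq and Ga13. Sfrp1, which binds Wnt proteins outside the cell, was at 179 to 200.1 CPM in Gas, 843 to 1193 CPM in Gai, 492 to 801 CPM in Gaq and 572 to 858 CPM in Ga13, so that the ranges of Gai and Ga13 met only at their edges and the Gai libraries lay above all Gaq libraries. Dkk2, a ligand of Lrp5 and Lrp6, had medians of 3.50 CPM in Gas and 40.5, 23.3 and 26.9 CPM in Gai, Gaq and Ga13. Dkk3, a diverged member of its family, did not show such a gap, at 195 to 227 CPM in Gas and 125 to 154 CPM in fibroblasts. Wnt5a, the chief ligand of beta-catenin-independent signalling, did not separate the cell types: its medians were 66.3, 64.7, 70.7 and 74.5 CPM in Gas, Gai, Gaq and Ga13, and the ranges of all 4 lines overlapped.

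Per kilobase of merged exon (GENCODE vM21 lengths), the ligand order differed by cell type. In Gas cells the first places depended on treatment: Wnt9a was at 16.3 and Wnt7a at 10.6 CPM per kilobase with isoproterenol, and in medium Wnt9a was at 11.4 and Wnt7a at 17.3. Wnt5b, Wnt5a and Wnt7b followed in that order with either treatment. In each fibroblast line the order began with Wnt5a, Wnt9a and Wnt4, with TRAP-6 and in medium, and had Wnt5a at 8.27, 9.04 and 9.53 CPM per kilobase in Gai, Gaq and Ga13. Fzd3 led the receptors of Gas cells, at 39.9 CPM per kilobase with isoproterenol and 37.8 in medium. Next were Fzd1 at 22.7 and Fzd7 at 17.7 with isoproterenol, and in medium Fzd1 was at 26.4, below Fzd7 at 28.1. Fzd1 led those of the fibroblast lines with 57.6, 60.7 and 54.8 CPM per kilobase in Gai, Gaq and Ga13, ahead of Fzd7 and Fzd2 with either treatment. These per-kilobase levels are medians over the 6 libraries of a treatment in Gas cells and over all 12 libraries of a fibroblast line. In the GENCODE annotation 17 of the 50 members overlap another gene, among them Fzd3, Fzd5, Fzd6, Prickle2, Vangl1, Axin1, Axin2, Wnt5a and Wnt11, and their counts are uncertain because the strand used in counting is not given in the sources used here.

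Among the 50 members, 42 were tested in Gas after the filter on low counts, and 32, 33 and 34 in Gai, Gaq and Ga13, and 31 passed in every line. Fzd10, Prickle4, Sfrp5, Wnt3, Wnt7a, Wnt7b, Wnt8b and Wnt10a passed in Gas cells alone. Dkk1, Dkk4, Wnt1, Wnt3a, Wnt6, Wnt8a, Wnt9b and Wnt16 passed in no line and did not exceed 0.651 CPM in any library. Wnt3a, a ligand often added to cultures to activate beta-catenin, had 0 counts in all 36 fibroblast libraries and 30 counts in the 12 Gas libraries together. Frat1 passed in Gaq and Ga13 at no more than 1.10 CPM, and did not pass in Gai.

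**Figure D1:**
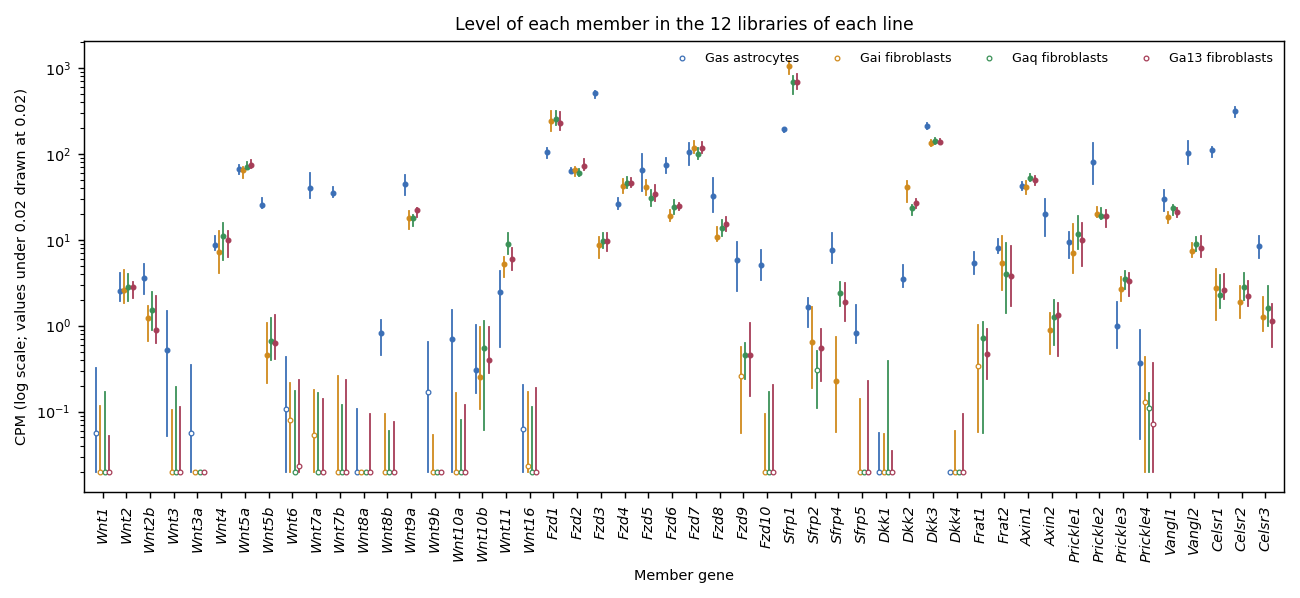
Levels of the 50 members in CPM on a log axis, with the median (point) and the range (line) over the 12 libraries of each line. Filled points mark members that passed the filter on low counts in that line. Celsr1, Celsr2, Fzd3, Wnt7a and Wnt7b lie far higher in Gas astrocytes, and Sfrp1 and Dkk2 lie higher in the 3 fibroblast lines.

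Agonist responses were tested within each line as the mean of the responses with Cre and with empty virus, and calls were made where the Benjamini-Hochberg adjusted p, over all genes tested, was under 0.05. Isoproterenol changed 20 of the 42 members tested in Gas astrocytes, 11 higher and 9 lower, where 23.3% of all genes tested were called, 11.7% higher and 11.5% lower. TRAP-6 changed 4 of 32 members in Gai fibroblasts, 2 higher and 2 lower (1.12% of all genes, 0.732% higher and 0.388% lower), and 8 of 33 in Gaq, 4 higher and 4 lower (5.61% of all genes, 3.78% higher and 1.83% lower). In Ga13 it changed 9 of 34, 2 higher and 7 lower (8.38% of all genes, 4.69% higher and 3.69% lower). The median log2 change of the members tested was 0.07, -0.05, -0.04 and -0.02 in Gas, Gai, Gaq and Ga13, and that of all genes lay within 0.01 of 0 in each line. In all, 25 of the 42 members tested in at least 1 line were called in at least 1. The share of all genes called in at least 1 line was not computed.

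**Figure D2:**
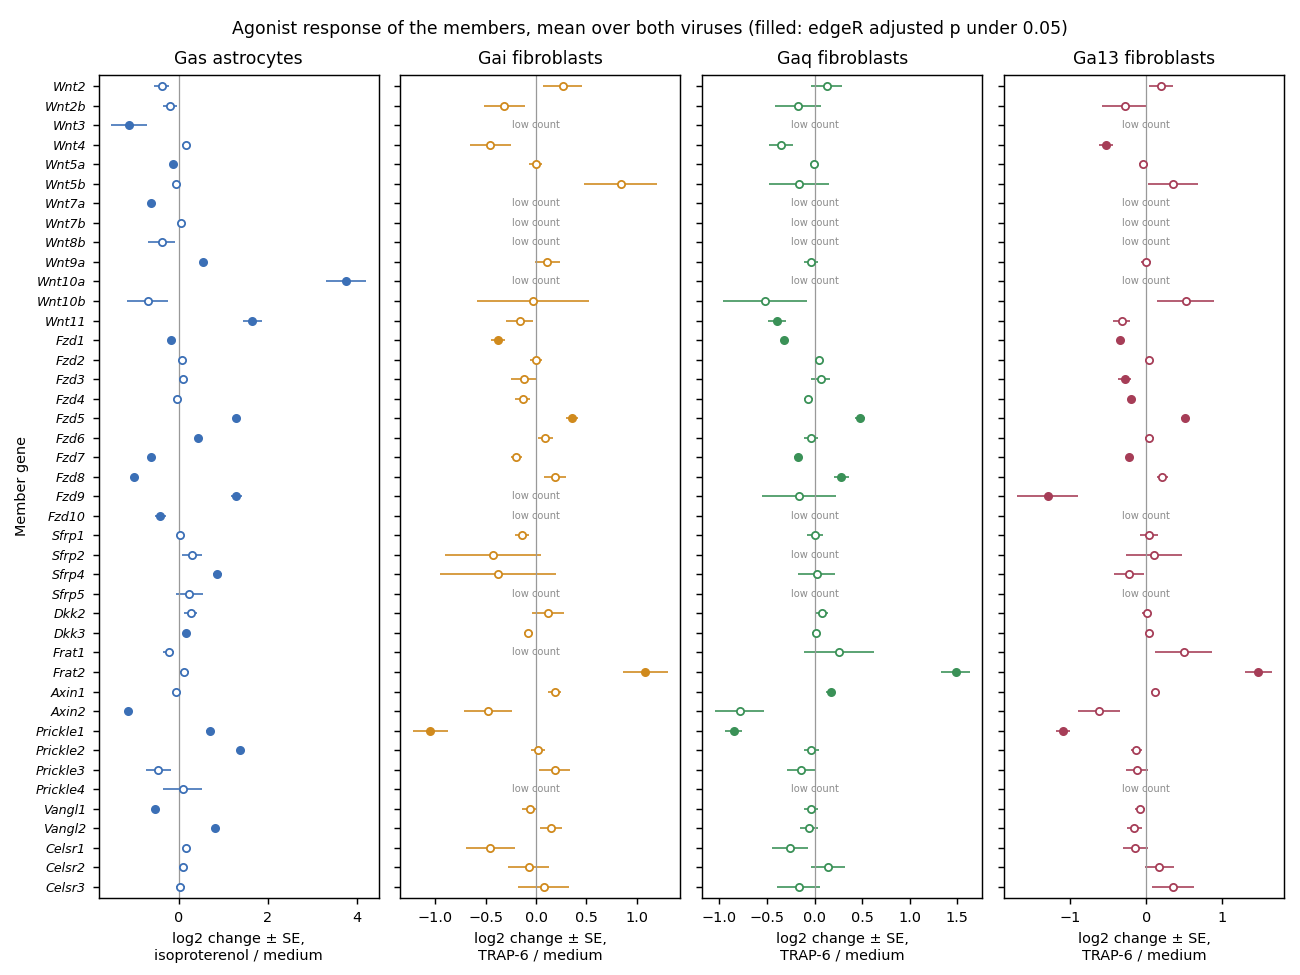
Mean agonist response of each member tested in at least 1 line, as log2 change ± SE, with isoproterenol in Gas astrocytes and TRAP-6 in the fibroblast lines (the axis scales differ between panels). Filled points are called at an edgeR adjusted p under 0.05. Prickle1 lies to the right of 0 in Gas and to the left in all 3 fibroblast lines, Fzd5 lies to the right and Fzd1 to the left in all 4 lines.

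In the fibroblast lines TRAP-6 moved the same 4 members in the same direction in Gai, Gaq and Ga13: Frat2 and Fzd5 rose, and Prickle1 and Fzd1 fell. They were 4 of the 31 members tested in all lines, and 0.764% of the 15175 genes tested in all 3 fibroblast lines were called in each in the same direction. Prickle1 codes for a cytoplasmic core polarity protein that binds Vangl proteins. In Gai cells it was at 6.73, 5.35 and 4.81 CPM with TRAP-6 and Cre virus and at 5.40, 4.52 and 4.12 CPM with TRAP-6 and empty virus, against 15.3, 8.83 and 10.7 CPM in medium with Cre virus and 13.6, 9.05 and 7.37 CPM in medium with empty virus. In Gaq cells the values were 9.19, 9.36 and 9.68 CPM with TRAP-6 and Cre virus and 7.83, 10.4 and 9.16 CPM with TRAP-6 and empty virus, against 17.3, 18.9 and 18.4 CPM in medium with Cre virus and 12.7, 18.3 and 17.7 CPM in medium with empty virus. In Ga13 cells they were 5.38, 6.32 and 7.44 CPM with TRAP-6 and Cre virus and 6.57, 4.88 and 6.68 CPM with TRAP-6 and empty virus, against 15.5, 12.6 and 15.5 CPM in medium with Cre virus and 14.1, 12.5 and 12.4 CPM in medium with empty virus. In each line every TRAP-6 library lay below every medium library, and the lowest medium library of Gaq, at 12.7 CPM, stood apart from the other 5. The log2 change was -1.05 ± 0.17 in Gai (edgeR adjusted p = 0.00615), -0.85 ± 0.089 in Gaq (edgeR adjusted p = 1.46e-08) and -1.09 ± 0.096 in Ga13 (edgeR adjusted p = 9.47e-11).

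Prickle1 went the other way in Gas astrocytes, where isoproterenol raised it. It was at 12.2, 11.0 and 10.9 CPM with agonist and Cre virus and 12.3, 11.6 and 10.7 CPM with agonist and empty virus, against 7.66, 8.20 and 6.65 CPM in medium with Cre virus and 7.57, 7.64 and 6.17 CPM in medium with empty virus. No agonist library overlapped a medium library, and the log2 change was 0.70 ± 0.093 (edgeR adjusted p = 2.12e-07). The cells, the agonist and the line all differ between these results, and the difference between them was not tested. In medium, Prickle1 was at 7.60 CPM in the median Gas library and 9.87, 18.0 and 13.3 CPM in those of Gai, Gaq and Ga13.

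Frat2, which codes for a Gsk3-binding protein, rose in the fibroblast lines. In Gaq cells it was at 4.87, 6.09 and 6.49 CPM with TRAP-6 and Cre virus and 7.59, 5.91 and 9.22 CPM with TRAP-6 and empty virus, against 2.32, 1.39 and 2.59 CPM in medium with Cre virus and 3.07, 2.75 and 2.53 CPM in medium with empty virus. In Ga13 cells it was at 4.48, 4.34 and 6.52 CPM with TRAP-6 and Cre virus and 5.63, 4.25 and 8.43 CPM with TRAP-6 and empty virus, against 1.71, 2.16 and 3.35 CPM in medium with Cre virus and 1.76, 1.75 and 1.92 CPM in medium with empty virus. All TRAP-6 libraries of these lines lay above all of their medium libraries, with log2 changes of 1.48 ± 0.15 in Gaq (edgeR adjusted p = 5.77e-09) and 1.47 ± 0.18 in Ga13 (edgeR adjusted p = 4.76e-07). In Gai cells it was at 5.32, 8.40 and 10.6 CPM with TRAP-6 and Cre virus and 7.51, 9.10 and 11.0 CPM with TRAP-6 and empty virus, against 2.59, 5.36 and 4.66 CPM in medium with Cre virus and 2.57, 4.25 and 5.32 CPM in medium with empty virus. Here the groups met, since the lowest TRAP-6 library was just under the highest medium library, and the change of 1.08 ± 0.22 (edgeR adjusted p = 0.0396) lost its call in 7 of 12 fits that left out a library. These were the fits without replicate 2 or 3 of TRAP-6 with Cre, replicate 2 or 3 of TRAP-6 with empty virus, replicate 3 of medium with Cre, or replicate 1 or 2 of medium with empty virus, and the edgeR adjusted p over all 12 fits ranged from 0.0107 to 0.111. Frat2 was lowest in replicate 1 of each Gai group, and with replicates 2 and 3 alone the log2 change was 1.00 (edgeR adjusted p = 1.25e-06). In that fit Prickle1 changed by -0.93, Fzd1 by -0.41 and Fzd5 by 0.27 (edgeR adjusted p = 4.03e-06, 7.94e-08 and 0.00188), 6 members were called with Fzd7 and Sfrp1 added, and 703 of all genes were called, against 179 with all libraries.

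In Gas astrocytes Frat2 was at 7.11 to 10.2 CPM (median 8.31) with isoproterenol and 7.06 to 9.31 CPM (median 8.05) in medium. The groups overlapped and the log2 change was 0.12 ± 0.10 (95% interval -0.08 to 0.32, edgeR adjusted p = 0.461). The neighbouring Frat1 was called in no line where it was tested, with log2 changes of -0.23 ± 0.12 in Gas, 0.26 ± 0.37 in Gaq and 0.49 ± 0.37 in Ga13. The longest run of bases shared by a Frat1 and a Frat2 transcript in GENCODE vM21 is 104, so reads that lie within it cannot be assigned to either gene.

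Fzd5 and Fzd1 were called in all 4 lines in the same direction, as 0.287% of the 14611 genes tested in all 4 lines were. Fzd5, a Frizzled receptor that couples to beta-catenin, was at 84.9 to 98.2 CPM (median 93.0) with isoproterenol and 36.5 to 44.5 CPM (median 38.3) in medium in Gas cells. With TRAP-6 it was at 42.4 to 49.1 CPM (median 47.9) in Gai, 32.8 to 38.0 CPM (median 35.9) in Gaq and 36.2 to 43.4 CPM (median 41.6) in Ga13, against 33.0 to 40.1 CPM (median 38.1), 25.0 to 28.4 CPM (median 26.1) and 27.9 to 31.5 CPM (median 29.3) in medium in the same lines. No line had an agonist library within its medium range. The log2 change was 1.29 ± 0.050 in Gas (edgeR adjusted p = 2.66e-21), and 0.36 ± 0.060, 0.47 ± 0.054 and 0.51 ± 0.049 in Gai, Gaq and Ga13 (edgeR adjusted p = 0.0047, 9.05e-08 and 7.96e-10).

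Fzd1, the Frizzled with the highest level per kilobase in the fibroblasts with either treatment, was lower with agonist. It was at 88.3 to 101 CPM (median 95.5) with isoproterenol and 108 to 118 CPM (median 111) in medium in Gas cells. With TRAP-6 it was at 182 to 233 CPM (median 206) in Gai, 218 to 235 CPM (median 226) in Gaq and 187 to 218 CPM (median 206) in Ga13, against 251 to 314 CPM (median 271), 274 to 317 CPM (median 282) and 242 to 303 CPM (median 263) in medium. Every agonist library lay below every medium library of its line. The log2 change was -0.18 ± 0.040 in Gas (edgeR adjusted p = 0.000831), and -0.37 ± 0.069, -0.32 ± 0.033 and -0.34 ± 0.030 in Gai, Gaq and Ga13 (edgeR adjusted p = 0.0142, 1.09e-08 and 1.89e-10).

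**Figure D3:**
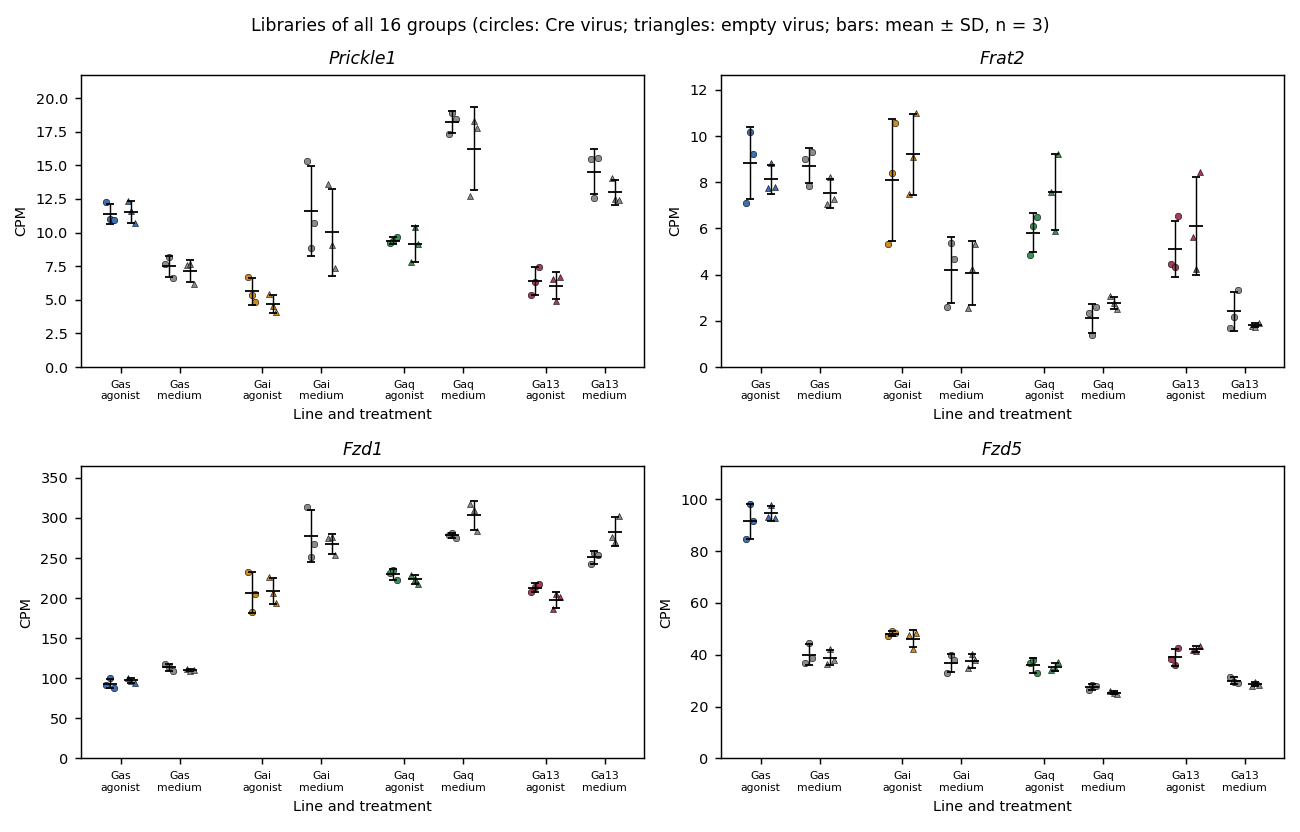
Prickle1, Frat2, Fzd1 and Fzd5 in CPM in every library, by line and treatment, with agonist (coloured) left of medium (grey). Circles are Cre virus, triangles are empty virus, and bars give the mean ± SD of 3 libraries. Agonist and medium libraries separate in each panel except for Frat2 in Gas and in Gai.

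Some further receptors and ligands changed in part of the fibroblast lines. Fzd7, a receptor of both Wnt branches, was at 86.9 to 102 CPM (median 90.4) with TRAP-6 and 98.5 to 117 CPM (median 107) in medium in Gaq, and at 102 to 113 CPM (median 105) with TRAP-6 and 119.6 to 136 CPM (median 126) in medium in Ga13. The Gaq ranges overlapped, the Ga13 ranges did not, and the log2 change was -0.18 ± 0.036 in Gaq (edgeR adjusted p = 0.00123) and -0.23 ± 0.034 in Ga13 (edgeR adjusted p = 8.75e-06). In Gai it was -0.20 ± 0.053 and not called (edgeR adjusted p = 0.106). Wnt4, a ligand of mesenchyme and epithelium, fell in Ga13, with 6.26 to 9.87 CPM (median 7.94) with TRAP-6 and 9.73 to 12.8 CPM (median 12.0) in medium (-0.53 ± 0.091, edgeR adjusted p = 6.54e-05). These ranges met at their edges, and the log2 changes in Gai and Gaq were -0.45 ± 0.20 and -0.35 ± 0.13, not called. Wnt11, a ligand of cell movement, fell in Gaq, where it was at 6.79 to 8.63 CPM (median 7.75) with TRAP-6 and 9.28 to 12.1 CPM (median 10.2) in medium without overlap (-0.39 ± 0.098, edgeR adjusted p = 0.00905), and its change in Ga13 of -0.32 ± 0.11 was not called (edgeR adjusted p = 0.0665).

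Fzd4, a receptor for Norrin as well as for Wnt proteins, was at 40.6 to 44.1 CPM (median 42.6) with TRAP-6 and 47.8 to 52.6 CPM (median 50.2) in medium in Ga13, with no overlap and a log2 change of -0.20 ± 0.040 (edgeR adjusted p = 0.000445). Axin1, the scaffold of the destruction complex, was at 51.5 to 58.1 CPM (median 55.1) with TRAP-6 and 47.97 to 53.0 CPM (median 50.4) in medium in Gaq, with overlap and a log2 change of 0.17 ± 0.043 (edgeR adjusted p = 0.0121). The remaining calls were less stable. Fzd8 rose by 0.28 ± 0.080 in Gaq (edgeR adjusted p = 0.0304), where it was at 12.4 to 16.8 CPM (median 15.1) with TRAP-6 and 11.1 to 14.1 CPM (median 12.4) in medium, and the call was lost without replicate 1 or 3 of TRAP-6 with Cre, 1 or 2 of TRAP-6 with empty virus, 2 or 3 of medium with Cre, or 3 of medium with empty virus (edgeR adjusted p up to 0.112). Fzd3 was at 7.36 to 10.003 CPM (median 8.32) with TRAP-6 and 8.67 to 11.9 CPM (median 10.7) in medium in Ga13, with overlap. It had a log2 change of -0.28 ± 0.087 (edgeR adjusted p = 0.0375) and was not called without replicate 3 of TRAP-6 with Cre, 2 or 3 of TRAP-6 with empty virus, 1 or 2 of medium with Cre, or 1 or 2 of medium with empty virus (up to 0.110). Fzd9, with 45 counts in the 6 TRAP-6 libraries and 110 in the 6 medium libraries of Ga13, changed by -1.29 ± 0.40 (edgeR adjusted p = 0.0385), and this call remained only without replicate 1 or 2 of TRAP-6 with Cre, with an edgeR adjusted p of up to 0.0952 in the other 10 fits.

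Axin2 was barely expressed in the fibroblasts, at 0.439 to 1.49 CPM with TRAP-6 and 0.646 to 1.98 CPM in medium, and was called in none of the lines (log2 changes -0.47 ± 0.24, -0.79 ± 0.26 and -0.62 ± 0.27 in Gai, Gaq and Ga13). Sfrp1, Dkk2 and Dkk3, of the Sfrp and Dkk families, had log2 changes between -0.14 and 0.12 in the 3 lines and were not called. Neither Vangl gene nor any Celsr gene was called there. In a joint fit of the 36 fibroblast libraries, the TRAP-6 response differed between lines for 0 of 34 members (smallest edgeR adjusted p = 0.773, for Fzd9; 0 at an unadjusted p under 0.05, and 0 with DESeq2), where 0.299% of all genes were called. These counts are for the test over the 3 lines together. The pairwise tests of that fit also called 0 members. At an unadjusted p under 0.05 they had 3 members for Ga13 against Gai (Fzd9, Vangl2 and Dkk3). They had 1 for Gaq against Gai (Wnt5b) and 1 for Ga13 against Gaq (Fzd3). The response of Frat2 was 0.40 higher on the log2 scale in Gaq than in Gai, with a 95% interval of -0.18 to 0.97.

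Markers of other cells also moved with TRAP-6. Wt1 was the only one of 4 mesothelial markers called, higher in Gaq and Ga13 (log2 changes 0.46 and 0.43), while Msln, Upk3b and Lrrn4 were not called, with the list as a whole at 377 to 556 CPM with TRAP-6 and 357 to 524 CPM in medium in Gaq, and 460 to 551 CPM with TRAP-6 and 434 to 513 CPM in medium in Ga13. Pdgfra, of the fibroblast list, fell by 0.14 in Gaq and 0.18 in Ga13, and it was 1 of 7 fibroblast markers called in each. Kdr, of the endothelial list, fell by 0.53 in Gaq and 0.51 in Ga13, and Gja1, of the astrocyte list, rose by 0.37 in Gai, 0.41 in Gaq and 0.55 in Ga13. Of the oligodendrocyte list, Pdgfra in Gaq and Pdgfra and Mbp in Ga13 were called lower. Lung epithelial markers summed to at most 0.542 CPM in any fibroblast library. Smooth muscle and pericyte markers summed to 1614 to 2012 CPM with TRAP-6 and 1549.8 to 1710.4 CPM in medium in Gaq, where Acta2 and Myh11 rose (0.15 and 0.21), and to 2638 to 2979 CPM with TRAP-6 and 2333 to 2670.2 CPM in medium in Ga13, where Acta2 rose by 0.23 and Cspg4 fell by 0.25. The part of these cells in the member responses was not tested.

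In Gas astrocytes isoproterenol changed members of the Wnt, Fzd, Sfrp, Dkk, Axin, Prickle and Vangl families. Of 13 Wnt ligands tested, 3 rose and 3 fell. Wnt10a, a ligand that acts through beta-catenin, was at 1.42, 1.16 and 1.46 CPM with agonist and Cre virus and 1.10, 1.52 and 1.28 CPM with agonist and empty virus, against 0, 0.314 and 0.145 CPM in medium with Cre virus and 0.0464, 0 and 0.0956 CPM in medium with empty virus. The 6 agonist libraries held 183 counts and the 6 medium libraries 18, with no overlap, and the fitted log2 change was 3.77 ± 0.44 (edgeR adjusted p = 1.42e-08). Wnt10a passed the filter on low counts only through the agonist groups. It was tested because of its level there, and the size of its change rests on medium counts near 0. Wnt11 was at 2.87 to 4.37 CPM (median 3.98) with isoproterenol and 0.557 to 2.11 CPM (median 1.26) in medium, without overlap (1.66 ± 0.22, edgeR adjusted p = 4.01e-07). Wnt9a was at 49.5 to 56.9 CPM (median 54.2) with isoproterenol and 33.6 to 39.5 CPM (median 38.1) in medium (0.55 ± 0.050, edgeR adjusted p = 2.67e-11).

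The ligand Wnt7a fell, with 30.8 to 35.2 CPM (median 33.7) with isoproterenol and 44.8 to 59.5 CPM (median 55.0) in medium (-0.62 ± 0.061, edgeR adjusted p = 8.47e-10). Its close relative Wnt7b was at 31.5 to 40.7 CPM (median 35.5) with isoproterenol and 31.8 to 41.2 CPM (median 34.5) in medium, with a log2 change of 0.05 ± 0.056 (edgeR adjusted p = 0.599), so the Wnt7a ranges were separate and the Wnt7b ranges overlapped. Wnt5a was lower by a small margin, with 57.5 to 65.6 CPM (median 61.8) with isoproterenol and 67.1 to 74.1 CPM (median 69.2) in medium (-0.14 ± 0.043, edgeR adjusted p = 0.0179), and lost the call without replicate 1 of either empty-virus group (edgeR adjusted p up to 0.0664). Wnt3 was close to the detection limit, at 0.0525 to 0.557 CPM (median 0.3) with isoproterenol and 0.314 to 1.49 CPM (median 0.721) in medium, and its change of -1.12 ± 0.40 (edgeR adjusted p = 0.0416) was lost in 8 of 12 fits that left out a library. Those were the fits without replicate 1 or 3 of agonist with Cre, 1 or 2 of agonist with empty virus, 1 or 3 of medium with Cre, or 1 or 3 of medium with empty virus, with an edgeR adjusted p of up to 0.173.

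All 10 Frizzled receptors were tested in Gas cells, and 7 were called, not all in the same direction. Fzd5, Fzd9 and Fzd6 rose, and Fzd7, Fzd8, Fzd10 and Fzd1 fell. Fzd9, a receptor of neural progenitors and bone, was at 7.27 to 9.33 CPM (median 8.49) with isoproterenol and 2.55 to 4.31 CPM (median 3.68) in medium (1.30 ± 0.12, edgeR adjusted p = 4.5e-11). Fzd8, whose extracellular domain binds many Wnt proteins, was at 20.8 to 23.9 CPM (median 22.0) with isoproterenol and 39.96 to 52.5 CPM (median 45.7) in medium (-1.01 ± 0.062, edgeR adjusted p = 1.27e-15). Fzd7 was at 74.2 to 84.8 CPM (median 80.2) with isoproterenol and 125 to 135 CPM (median 128) in medium (-0.63 ± 0.039, edgeR adjusted p = 1.47e-15). In none of these did an agonist library fall within the medium range. Fzd6, a receptor that serves planar polarity in skin, rose by 0.42 ± 0.048 (edgeR adjusted p = 6.05e-09), and Fzd10 had a log2 change of -0.41 ± 0.13 (edgeR adjusted p = 0.0158) that was not called without replicate 1 of agonist with Cre or of medium with empty virus (edgeR adjusted p up to 0.0661). Fzd3, the receptor with the highest level per kilobase with either treatment, was at 454 to 545 CPM (median 510.4) with isoproterenol and 447 to 529.6 CPM (median 484) in medium and was not called (0.10 ± 0.043, edgeR adjusted p = 0.0958).

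Of the intracellular and secreted regulators, Axin2 fell. It was at 11.2, 13.5 and 13.1 CPM with agonist and Cre virus and 12.1, 13.1 and 11.0 CPM with agonist and empty virus, against 28.6, 26.2 and 28.3 CPM in medium with Cre virus and 27.0, 28.4 and 29.8 CPM in medium with empty virus. The agonist libraries lay below all medium libraries, and the log2 change was -1.14 ± 0.069 (edgeR adjusted p = 7.69e-16). Axin1 was at 38.0 to 44.0 CPM (median 40.9) with isoproterenol and 39.7 to 46.8 CPM (median 44.4) in medium and was not called (-0.05 ± 0.051, edgeR adjusted p = 0.531). Among Sfrp and Dkk members, Sfrp4 rose to 8.97 to 12.1 CPM (median 9.78) with isoproterenol, against 5.36 to 6.38 CPM (median 5.78) in medium (0.87 ± 0.10, edgeR adjusted p = 1.12e-08). Dkk3 rose by 0.16 ± 0.034 (edgeR adjusted p = 0.000518). Sfrp1 had a log2 change of 0.04 ± 0.036 and was not called.

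The planar polarity members split within families. Prickle2 was at 106 to 132 CPM (median 126) with isoproterenol and 44.5 to 54.0 CPM (median 47.9) in medium (1.38 ± 0.063, edgeR adjusted p = 8.24e-13), so it rose together with Prickle1. Vangl2 was at 123 to 139 CPM (median 134) with isoproterenol and 75.1 to 80.9 CPM (median 77.5) in medium (0.82 ± 0.041, edgeR adjusted p = 3.05e-18), and the second Vangl gene, Vangl1, was at 21.5 to 26.9 CPM (median 24.6) with isoproterenol and 31.9 to 38.3 CPM (median 36.7) in medium (-0.53 ± 0.058, edgeR adjusted p = 3.1e-09). Agonist and medium libraries did not overlap in any of these, with Prickle2 and Vangl2 higher and Vangl1 lower with agonist. Prickle3 and Prickle4 did not exceed 1.87 CPM in any Gas library and were not called. The cadherins Celsr1, Celsr2 and Celsr3 had log2 changes of 0.15 ± 0.058, 0.10 ± 0.053 and 0.04 ± 0.11, none called (edgeR adjusted p = 0.0648, 0.211 and 0.872). In the fibroblast lines Prickle2 was at 14.2 to 24.2 CPM and had log2 changes of 0.02 ± 0.071, -0.03 ± 0.080 and -0.13 ± 0.073 in Gai, Gaq and Ga13, none called, beside the fall of Prickle1.

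**Figure D4:**
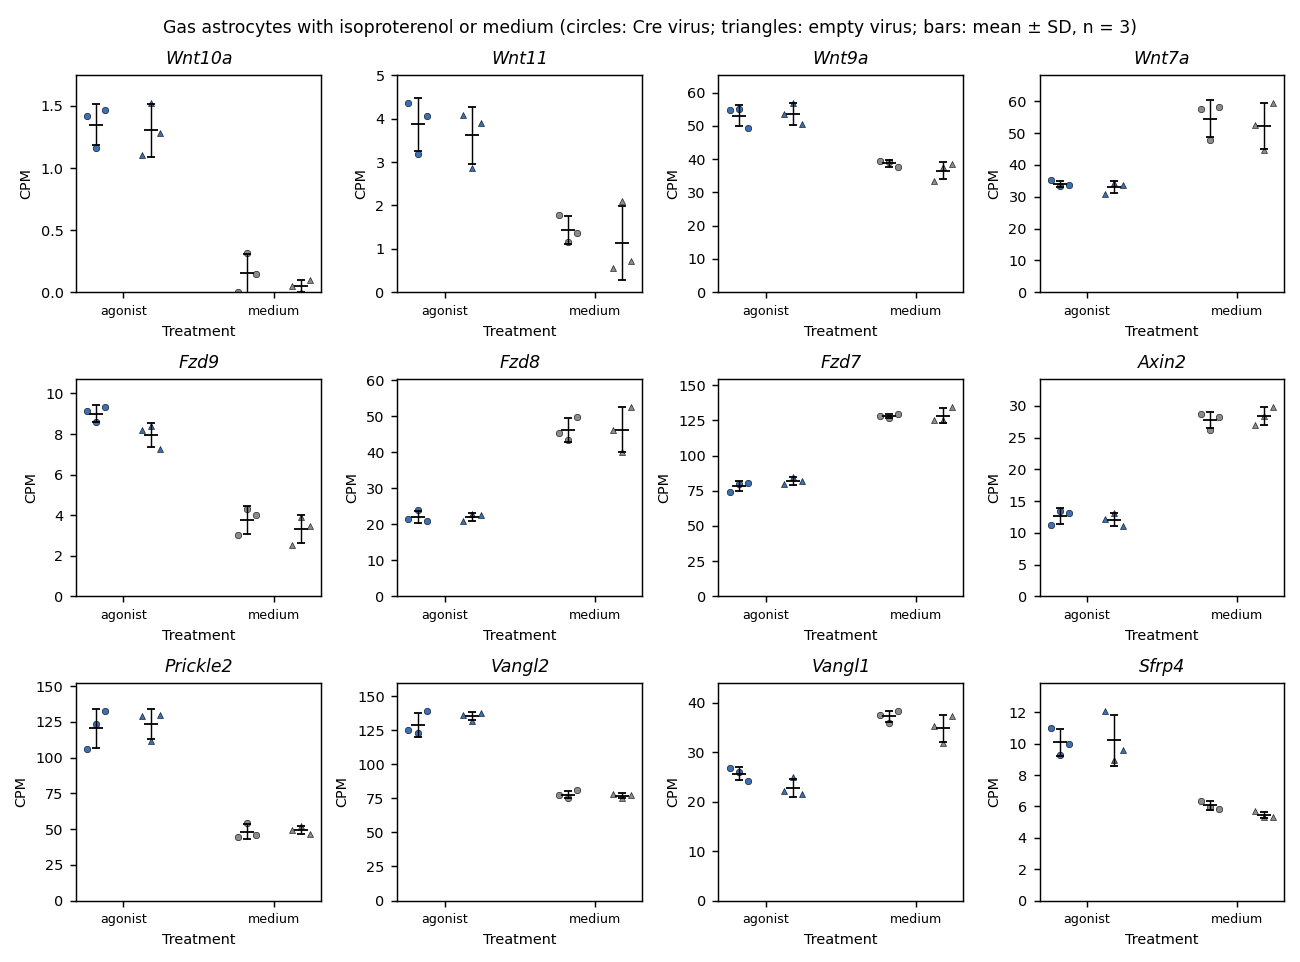
CPM of 12 members in the 12 libraries of Gas astrocytes, with isoproterenol (blue) left of medium (grey). Circles are Cre virus, triangles are empty virus, and bars give the mean ± SD of 3 libraries. Agonist libraries lie above all medium libraries for Wnt10a, Wnt11, Wnt9a, Fzd9, Prickle2, Vangl2 and Sfrp4, and below them for Wnt7a, Fzd8, Fzd7, Axin2 and Vangl1.

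Markers of other cells in the Gas cultures were read beside these changes. Leptomeningeal markers summed to 54.8 to 60.7 CPM with isoproterenol and 24.7 to 31.4 CPM in medium. Of the 4 only Foxc1 was called (log2 change 1.27, edgeR adjusted p = 5.78e-20), while Dcn and Lum were not called and Slc22a6 was at 0. Of 5 smooth muscle and pericyte markers, Myh11 and Cspg4 fell (log2 changes -0.69 and -0.27), and the list summed to 2059 to 2290 CPM with isoproterenol and 2286 to 2583 CPM in medium. Of 7 astrocyte markers 3 rose, namely Slc1a3, Aldoc and Gja1 (0.23, 0.10 and 0.12), and of 6 oligodendrocyte lineage markers 2 rose, namely Pdgfra and Mbp (0.12 and 0.23), with that list at 730.2 to 870.0 CPM with isoproterenol and 729.7 to 905 CPM in medium. Fibroblast markers summed to 1518 to 1919 CPM with isoproterenol and 1543 to 1970 CPM in medium, and Pdgfra was the only one of 6 tested that was called. Cx3cr1, of microglia, fell by 0.18, and Tubb3, of neurons, and Nkx2-1, of the lung epithelial list, rose (0.16 and 0.52). Ependymal markers summed to 307 to 361 CPM with isoproterenol and 323 to 358 CPM in medium, with 0 of 3 called. The part of these cells in the member responses was not tested.

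Setting Cre against empty virus asks whether the members differ between cells with and without the expressed biosensor, together with Cre itself. In the Gas line 16 members were called in the response with Cre virus and 18 in that with empty virus (14.3% and 14.7% of all genes). The counts were 5 and 5 in Gaq (3.38% and 2.65%) and 6 and 8 in Ga13 (5.37% and 3.9%). In Gai 0 members were called with either virus (0.238% and 0.119% of all genes), with 5 members under an unadjusted p of 0.05 with Cre virus and 7 with empty virus. DESeq2 called 3 and 2 there. Cre against empty virus gave 0 called members in any line, with agonist or in medium, by edgeR. All genes were called at 0.0166% with agonist and 0.00552% in medium in Gas, and at 0% in either in Gai. They were called at 3.41% with agonist and 2.65% in medium in Gaq, and at 0.0379% with agonist and 0.00632% in medium in Ga13. At an unadjusted p under 0.05 the members with agonist numbered 2, 0, 8 and 7 in Gas, Gai, Gaq and Ga13, and those in medium 2, 1, 7 and 2. The share of all genes under that unadjusted threshold was not counted for any contrast. Member and list counts at an unadjusted p, here and elsewhere, are therefore not read as results about those genes. DESeq2 called Sfrp1 in Gaq with TRAP-6, Fzd4 and Fzd7 in Gaq in medium, and no member in the other lines.

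Fzd4 in Gaq came nearest to a call between the viruses, with log2 differences of 0.23 ± 0.070 with TRAP-6 (edgeR adjusted p = 0.0571) and 0.24 ± 0.068 in medium (edgeR adjusted p = 0.0557), higher with Cre in both. With TRAP-6 it was at 52.3, 45.5 and 48.1 CPM with Cre virus and 39.6, 44.8 and 40.2 CPM with empty virus, and in medium at 51.2, 52.6 and 53.7 CPM with Cre virus and 46.2, 41.5 and 46.4 CPM with empty virus. The difference between the responses, with Cre minus with empty virus, was called for 0 members in Gas, Gai and Gaq (0%, 0% and 0.161% of all genes; 0, 0 and 5 members at an unadjusted p under 0.05, and 0 with DESeq2 in each) and for Fzd1 in Ga13 (0.0821% of all genes). Fzd1 in Ga13 was at 207, 214 and 218 CPM with TRAP-6 and Cre virus and 242, 257 and 253 CPM in medium with Cre virus, and at 187, 205 and 201 CPM with TRAP-6 and empty virus and 276, 269.8 and 303 CPM in medium with empty virus. It fell with either virus, by less with Cre (-0.19 ± 0.043) than with empty virus (-0.48 ± 0.043), a difference of 0.29 ± 0.061 (edgeR adjusted p = 0.0453). The call was lost in 11 of 12 fits that left out a library, all but that without replicate 2 of medium with empty virus, with edgeR adjusted p of 0.0350 to 0.247. In Gaq the same difference was 0.17 ± 0.066 (edgeR adjusted p = 0.636), and in Gai -0.08 ± 0.14. The differences of Prickle1, Frat2 and Fzd5 were not called in any line.

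**Figure D5:**
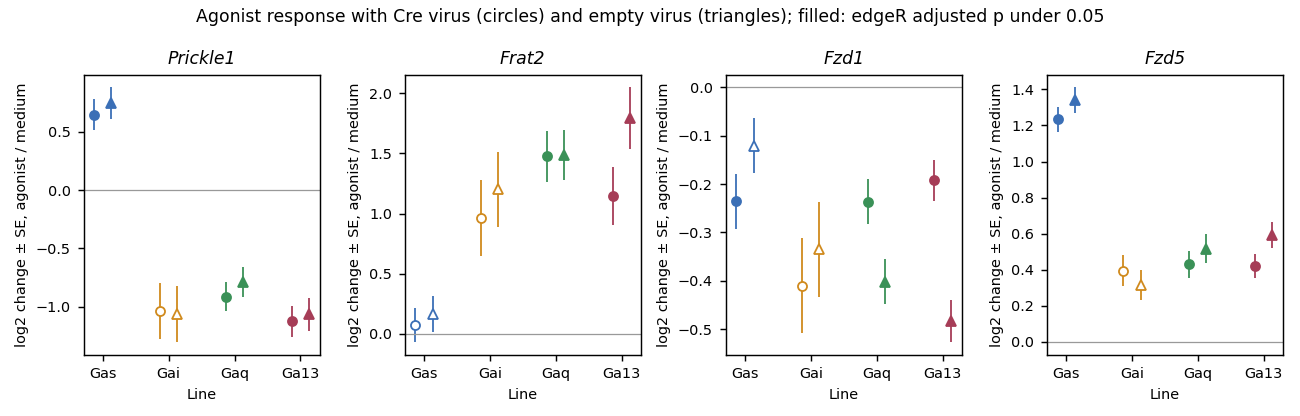
Agonist response of Prickle1, Frat2, Fzd1 and Fzd5 in each line, as log2 change ± SE, with Cre virus (circles) left of empty virus (triangles). Filled symbols are called at an edgeR adjusted p under 0.05. In Ga13, Fzd1 changed by -0.19 with Cre virus and -0.48 with empty virus.

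The rest of the pathway was read from 5 lists of genes outside the members, some of which share genes. Lgr5, Rnf43, Znrf3, Notum, Apcdd1, Tcf7, Lef1, Nkd1, Ptk7, Ror2, Ryk and the Dvl genes stand on a pair of lists each. Beside the counts for Gas cells stand the 11.7% of all genes that were called higher and 11.5% lower. Of 20 genes of ligand production and coreceptors tested there, 5 rose and 1 fell. They were led by Tpbg, a membrane protein known to inhibit Wnt and beta-catenin signalling, at 108 ± 4.15 CPM with agonist and 51.8 ± 2.37 CPM in medium (SD, n = 6 each) (1.12 ± 0.044, edgeR adjusted p = 3.31e-21). Lrp6 (0.61 ± 0.040), the R-spondin receptor Lgr5 (2.63 ± 0.35) and Znrf3, a ubiquitin ligase that removes Frizzled from the surface (0.39 ± 0.063), also rose. Of 10 antagonists 6 rose and 0 fell, among them Kremen1, a Dkk coreceptor (0.51 ± 0.038), Apcdd1 (0.62 ± 0.073), Draxin (0.59 ± 0.074) and Cthrc1, which is also known to favour planar polarity signalling (0.31 ± 0.063). Their median log2 change was 0.31, against a median within 0.01 of 0 over all genes.

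Of 40 genes of the destruction complex and the nuclear factors, 12 rose and 10 fell in Gas cells. Tcf7, a TCF factor, was at 28.6 ± 1.19 CPM with agonist and 66.2 ± 6.03 CPM in medium (SD, n = 6 each) (-1.16 ± 0.054, edgeR adjusted p = 3.28e-19), and Bcl9l, a beta-catenin cofactor, fell as well (-0.72 ± 0.050). Tle3, a corepressor of TCF (0.48 ± 0.037), and Dact1, which binds Dishevelled (1.08 ± 0.10), rose. Of 19 targets of beta-catenin, 9 rose and 4 fell. Sp5 was at 2.50 ± 0.552 CPM with agonist and 0.349 ± 0.146 CPM in medium (SD, n = 6 each) (2.87 ± 0.28, edgeR adjusted p = 2.16e-10) and Ccn4 rose (0.81 ± 0.057), whereas Myc fell (-1.16 ± 0.061) with Tcf7 and the member Axin2. The targets thus did not move in 1 direction. Of 32 planar polarity effectors 5 rose and 4 fell, with Dchs1, an atypical cadherin (0.52 ± 0.051), Fjx1, whose Drosophila relative acts on such cadherins (0.37 ± 0.044), and Dvl1 (0.18 ± 0.042) higher and Smurf1 (-0.27 ± 0.050) lower.

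In the fibroblast lines the counts stand beside 1.12%, 5.61% and 8.38% of all genes called in Gai, Gaq and Ga13. Of the 18 tested for ligand production and coreceptors, 0 were called in Gai (1 at an unadjusted p under 0.05, and 0 with DESeq2), and 1 each in Gaq and Ga13, in both cases Lrp6, which rose (0.22 ± 0.035 and 0.15 ± 0.027). Of 5 antagonists tested, edgeR called 0 in each line (0 at an unadjusted p under 0.05 in Gai, 0 in Gaq and 1 in Ga13, and 0 with DESeq2). Of the destruction complex and nuclear factors, 1 rose and 0 fell of 38 in Gai, 2 rose and 1 fell of 38 in Gaq, and 2 rose and 6 fell of 39 in Ga13. Tle4, a TCF corepressor, rose in all 3 (0.47 ± 0.093, 0.45 ± 0.10 and 0.67 ± 0.092 in Gai, Gaq and Ga13). Its relative Tle3 fell in Gaq (-0.14 ± 0.033) and Ga13 (-0.23 ± 0.040), and the kinase Csnk1e rose there (0.18 ± 0.037 and 0.21 ± 0.030). In Ga13 Bcl9l fell (-0.18 ± 0.042).

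Of the beta-catenin targets, 3 rose and 1 fell of 14 in Gai, 4 rose and 1 fell of 14 in Gaq, and 3 rose and 2 fell of 15 in Ga13. Cd44, a hyaluronan receptor, rose in all 3 (0.36 ± 0.046, 0.51 ± 0.049 and 0.63 ± 0.028), and so did Myc (0.33 ± 0.054, 0.50 ± 0.035 and 0.64 ± 0.029), which had fallen with isoproterenol in the astrocytes. Ccn4, a matricellular protein, fell in all 3 (-0.23 ± 0.044, -0.15 ± 0.031 and -0.23 ± 0.023). Nrcam rose in Gai (0.33 ± 0.072) and Ga13 (0.36 ± 0.082), and Fosl1 in Gaq (0.27 ± 0.060). Of 31 planar polarity effectors, 0 were called in Gai (5 at an unadjusted p under 0.05, and 0 with DESeq2), 4 rose in Gaq, and 3 rose and 2 fell in Ga13. Daam1, a formin that acts downstream of Dishevelled, rose in Gaq and Ga13 (0.22 ± 0.037 and 0.21 ± 0.032), as did the cadherin Fat4 (0.19 ± 0.055 and 0.18 ± 0.041). Dvl2 fell in Ga13 (-0.17 ± 0.048). Many of these genes are expressed for roles outside the Wnt pathway, and the lists overlap, so their counts are not independent. The median log2 changes of production and coreceptors, antagonists, destruction complex and nuclear factors, targets, and effectors were 0.03, 0.31, 0.04, 0.11 and 0.00 in Gas, -0.01, -0.12, 0.02, 0.13 and 0.03 in Gai, 0.02, -0.01, 0.00, 0.03 and 0.04 in Gaq, and 0.03, 0.01, -0.02, 0.01 and 0.03 in Ga13. The mean had the opposite sign to the median for production and coreceptors in Gai, Gaq and Ga13, for antagonists in Ga13 and for the destruction complex list in Gaq.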

How the data were processed

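Poly-A RNA from 48 libraries (4 lines, 3 libraries in each of 16 groups) was analysed from raw counts per gene deposited by the authors, 1 table per line. Per the submitters' processing notes, fastp, Subread and featureCounts were used with GRCm39; versions, annotation and strand setting are not given in the sources used here. The members and lists were chosen with earlier results of these data known. The biosensor row was set aside before the fits.

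Each line was fitted alone with edgeR 4.0.16 (R 4.3.3, limma 3.58.1): TMM scaling, the default expression filter by group, 4 group means and robust quasi-likelihood F tests, with Benjamini-Hochberg adjustment over all genes tested (18103 in Gas, 15980 in Gai, 15528 in Gaq and 15835 in Ga13). The contrasts were the agonist response with Cre virus, with empty virus and their mean, Cre against empty virus in medium and with agonist, and how far the responses differed by virus. A joint fit of the 36 fibroblast libraries (16749 genes) tested differences between lines. CPM are counts per 1000000 counts of the library. Total counts were 15606007 to 42564149 per library. Replicates differed by more than counting noise, with a chi-square per degree of freedom of at least 2.62, so none was merged. Alternatives were DESeq2 1.42.0, RLE scaling, no filter on low counts, a filter of 1 CPM in 3 libraries, no robust estimation and a replicate block. Each library was also left out in turn, and in the joint fit all libraries of each replicate number. A fit of Gai replicates 2 and 3 alone was added after seeing the data.

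The rule for named members was those called in any contrast, at most the 8 with the smallest p per line and contrast, with Prickle1 and Frat2; values are given by library for some and by range and median for others, and further members were named after their values were seen. From each of the 5 other lists, genes were named from the up to 4 called with the smallest p in each line. Promoters came from RefSeq (GRCm38.p6), and overlaps and exon lengths from GENCODE vM21 (GRCm38), matched by symbol. No coordinates were moved between builds.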

Additional observations from a re-analysis of the deposited data

Results flagged for a closer look

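The response of Fzd1 to TRAP-6 in Ga13 fibroblasts differed between the viruses, by a test of the difference itself. The log2 response was -0.19 with Cre virus and -0.48 with empty virus, a difference of 0.29 (edgeR adjusted p = 0.0453). The adjusted p was 0.0553 with a filter of 1 CPM in 3 libraries and 0.106 with no robust estimation, and over these, DESeq2, RLE scaling, no filter on low counts and the replicate block it ranged from 0.000381 to 0.106. Leaving out a library gave edgeR adjusted p-values of 0.0350 to 0.247 and differences of 0.24 to 0.32. The difference was 0.17 in Gaq (edgeR adjusted p = 0.636), -0.08 in Gai and -0.11 in Gas.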

How the results depend on the processing

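For 43 member results with 776 alternative values, 719 kept direction and side of the threshold, 57 fell short of it with the same direction, and 0 reversed; the cause was not tested. Wnt3 in Gas and Fzd9 in Ga13 were not tested under a filter of 1 CPM in 3 libraries, which left 19 members called in Gas and 8 in Ga13. Outside leaving out libraries, the other calls lost were those of Fzd9 in Ga13 with no filter on low counts (edgeR adjusted p = 0.06) and of Fzd1 in the Ga13 difference (0 called with a filter of 1 CPM in 3 libraries and 0 with no robust estimation). DESeq2 called 3 members for the Gai response with Cre, 2 for that with empty virus, 1 for Cre in Gaq with TRAP-6 and 2 for Cre in Gaq in medium. With no filter on low counts these were 4, 4, 2 and 1, and Cre gave 1 call in Ga13 with TRAP-6 and 1 in medium, while no robust estimation gave 1 for Cre in Gaq with TRAP-6. With Gai replicates 2 and 3 alone, 5 members were called in its response with Cre and 3 in that with empty virus, and 703 of all genes in its mean response. Leaving out a library gave 0 to 2 members for the Gai response with Cre, 0 to 2 for Cre in Gaq with TRAP-6, 0 to 2 for Cre in Gaq in medium and 0 to 1 for the Ga13 difference. Of all genes, DESeq2 called 293 and no filter 445 in the Gai mean response, against 179. For the difference between fibroblast lines, the DESeq2 likelihood ratio test called 77, against 50. Leaving out all fibroblast libraries of 1 replicate number at a time gave 0 to 117 there. Of the destruction complex list in Gai, DESeq2 called 2 and no filter 2, against 1.

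Replicate numbers are shared by the groups, and the labels do not say whether they pair the samples. Of 18 same-number correlations of deviations, 1 in Gas, 8 in Gai, 0 in Gaq and 0 in Ga13 were over 0.1. Their medians were 0.031, 0.098, 0.049 and 0.047 in these lines. In the same order, 10, 4, 8 and 11 of 12 libraries correlated best with their own number. In Gas, Gaq and Ga13 this is a hint of pairing from the data and not the design. Correlations between different numbers in Gai ran from -0.296 to 0.255, and its replicate 1 stood apart, so no pairing is read there. The main fits did not use pairing. With the replicate block, called members were 7 in the Gai mean response, 5 and 4 in the Gai responses with Cre and empty virus, 4 and 4 for Cre in Gaq with TRAP-6 and in medium, 10 for the Ga13 response with Cre, 1 and 1 for Cre in Ga13 with TRAP-6 and in medium, and 2 for the Ga13 difference. With the block, 797 of all genes were called in the Gai mean response and 268 for the difference between fibroblast lines. For the responses by virus, the Cre contrasts and the differences between responses, all genes were not counted under the alternatives. The member counts given for those contrasts therefore stand without a share of all genes, and are not read as results about the members. The block gave 7 called genes of the destruction complex list in Gai and 5 in Gaq, 1 polarity effector in Gai, and 2 production genes, 1 antagonist and 8 targets in Ga13.

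Members with few counts, such as Wnt3 and Wnt10a in Gas and Fzd9 in Ga13, rest on little depth, and 8 members could not be tested at this depth.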
